A study of Mus musculus with 115 samples.

Results

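Cell cycle and DNA replication genes were followed in liver and in inguinal adipose tissue of gonadectomised mice. The set was a fixed list of 41 genes, of which 37 had at least 1 probe under that symbol on the Illumina expression array, out of 18120 symbols in the tables. The 37 genes had 62 probes. Mki67, Aurka, Aurkb and Racgap1 had no probe under those symbols and were not analysed here.

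The mice were of the FCG mouse model on a C57BL/6J background, which separates the kind of gonad from the sex chromosomes. Sry, the testis-determining gene, is deleted from the Y chromosome (written Y-) and may be carried as a transgene. XX and XY- mice lack Sry and develop ovaries (ovary-line groups), and XXSry and XY-Sry mice carry it and develop testes (testis-line groups). All animals, the controls included, had lost their gonads at 75 days of age and received a capsule at the same time, so no group had gonads during treatment. The capsule was blank (B), held testosterone (T, 5 mM) or held estradiol (E, 50 µg), and tissue was collected 3 weeks later. Each of the 12 liver groups had 5 arrays. In fat, XX B had 3 arrays; 4 arrays each came from XXSry E, XX T and XY-Sry B; every other group had 5. Nothing in the labels says how many animals stand behind an array, so the spread is that between arrays.

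The share of all probes detected on an array (detection p under 0.01) was 31.8% to 41% over the 60 liver arrays and 40.3% to 49.0% over the 55 fat arrays. In fat, XX E replicate 1 carries an agent label that disagrees with its title and was kept as estradiol. In liver, XY-Sry T replicate 5 had sex chromosome transcripts that go against its label, and XY- E replicate 5 resembled the arrays of testosterone-treated mice. Leaving out both liver arrays gave the same member genes called for testosterone, estradiol and gonad line in number and direction, 1 lower, 2 higher and 0. Markers of the labelled tissue were present: hepatocyte markers other than Fabp1 were detected on all 60 liver arrays, and the 8 adipocyte markers had a mean log2 intensity between 10.3 and 12.1 on every fat array. Hepatocyte markers were also high on 3 fat arrays, with a score of 13.36 on XY-Sry T replicate 1, 10.77 on XXSry B replicate 1 and 10.67 on XX T replicate 4, against at most 9.33 on the others. Skeletal muscle signal was wider: the mean of 12 muscle markers ran from 6.06 to 13.61 over the 55 fat arrays. The muscle gene Acta1 was detected on all 55, at a mean of 13.27, against 13.93 for the adipocyte gene Adipoq.

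Dividing cells pass through an ordered series of gene programmes. In late G1 and S phase, E2F transcription factors turn on genes that license replication origins and supply nucleotides, among them the Mcm helicase subunits, Pcna, Tyms and the ribonucleotide reductase genes. In G2 and mitosis, the B-Myb and FoxM1 complexes and the DREAM repressor act on genes for the spindle, the checkpoint and chromosome separation. They do so through the cell cycle homology region (CHR). Promoters of such genes often hold CCAAT boxes as well. Adult liver and adipocytes divide rarely. The inguinal fat pad of the mouse also holds the inguinal lymph node, where lymphocytes divide, and in females part of the mammary gland, whose epithelium divides under ovarian hormones.

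The promoters of 4 members are shown because Top2a, Mcm5 and Cdc20 had the steepest slopes on lymphoid marker content in fat and Prc1 was the member called lower with testosterone there. Each holds 250 bases before and 50 after the RefSeq start (GRCm38.p6), 5′ to 3′ on the gene's strand. Capitals mark the CHR letters TTTGAA, the CCAAT letters and the E2F-type letters TTTCCCGC, TTTCGCGC, TTTGCCGC or TTTGGCGC, on either strand.
Top2a (chr11:99024140-99024439, minus strand): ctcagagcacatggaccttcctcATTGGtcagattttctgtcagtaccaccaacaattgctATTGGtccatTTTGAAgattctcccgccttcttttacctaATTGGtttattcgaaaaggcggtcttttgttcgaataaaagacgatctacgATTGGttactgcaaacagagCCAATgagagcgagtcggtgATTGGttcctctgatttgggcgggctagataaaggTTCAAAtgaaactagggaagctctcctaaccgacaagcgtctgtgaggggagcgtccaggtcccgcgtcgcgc
Cdc20 (chr4:118437294-118437593, minus strand): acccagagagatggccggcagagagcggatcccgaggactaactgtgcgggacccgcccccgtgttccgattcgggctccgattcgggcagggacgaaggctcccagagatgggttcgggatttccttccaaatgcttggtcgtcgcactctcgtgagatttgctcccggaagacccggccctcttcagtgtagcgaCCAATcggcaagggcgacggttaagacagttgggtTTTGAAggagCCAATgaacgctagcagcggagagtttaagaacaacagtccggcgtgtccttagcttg
Prc1 (chr7:80294201-80294500, plus strand): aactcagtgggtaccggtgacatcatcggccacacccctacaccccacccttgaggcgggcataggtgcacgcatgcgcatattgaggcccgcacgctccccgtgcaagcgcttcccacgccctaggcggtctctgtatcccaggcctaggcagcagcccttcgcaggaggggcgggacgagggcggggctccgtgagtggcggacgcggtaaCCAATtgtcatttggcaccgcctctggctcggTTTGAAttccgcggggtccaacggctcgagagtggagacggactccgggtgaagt
Mcm5 (chr8:75109259-75109558, plus strand): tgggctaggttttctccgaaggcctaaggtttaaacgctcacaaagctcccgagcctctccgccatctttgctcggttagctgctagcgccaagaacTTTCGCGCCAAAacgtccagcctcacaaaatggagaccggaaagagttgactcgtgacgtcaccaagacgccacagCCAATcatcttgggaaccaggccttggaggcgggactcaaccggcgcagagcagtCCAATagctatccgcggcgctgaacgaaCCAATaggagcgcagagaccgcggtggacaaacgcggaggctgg

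Top2a held 6 CCAAT matches and 2 CHR matches in this window, Cdc20 and Prc1 each held a CHR match within 20 bases upstream of the start, and Mcm5 held 3 CCAAT matches and 2 overlapping E2F-type matches. Of the 41 listed genes, 34 had an entry in the RefSeq promoter table, with 36 entries. CCAAT stood in 77.8% of the 36 member promoters, against 37.4% of the 32851 promoters in the table. TTTGAA stood in 47.2% of the member promoters against 17.9% of all, and an E2F-type match in 13.9% against 2.26%. Matches are letters only, and no factor binding was measured.

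Cell cycle transcripts were detected more widely in fat than in liver, as were probes in general. Of 25697 probes 14636 were tested in fat and 11317 in liver, and of the 62 member probes 40 and 23. A probe was tested when it was detected on at least 3 arrays in fat or 5 in liver, and each gene is described by its tested probe with the highest mean. In fat 30 of 37 genes were tested, and the other 7 (the cyclins Ccna2 and Ccnb2, Cks2, Bub1, Kif20a, Tacc3 and Ube2c) were detected on 0 of 55 arrays. In liver 19 of 37 were tested, 10 were detected on 1 to 3 arrays, and 8 on none. A gene that passed this filter only where it was high would be kept for that reason, so the tested genes do not stand for all members.

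Some members were detected on every array of both tissues: Mcm4, a helicase subunit, Cenpa, the centromeric histone H3 variant, and Tyms, thymidylate synthase. Prc1, a microtubule bundler of the central spindle, Mcm5, Mcm6 and Rrm1, the large subunit of ribonucleotide reductase, were also detected on all 55 fat arrays. Top2a, the topoisomerase that untangles replicated DNA, was detected on 41 fat arrays and 2 liver arrays. Kif11, the spindle-pole motor, was detected on 15 fat arrays and 1 liver array. Probes of the same gene differed: for Tk1, thymidine kinase of the salvage pathway, 1 probe was detected on 52 fat arrays and the other 2 on 1 and 0.

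In fat the levels of the members spread widely among arrays of the same group. The mean log2 intensity of the 30 tested members ran from 6.20 to 7.86 over the 55 arrays, with a median of 6.82. In XX E the 5 arrays stood at 6.86, 7.49, 7.86, 6.77 and 6.74. In XX T the 4 arrays stood at 7.62, 6.32, 6.33 and 6.32. A single XX T array thus lay above 4 of the 5 XX E arrays while the other 3 lay below them all.

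The lymphoid marker score moved with these levels. The score is the mean log2 intensity of 16 B and T cell genes, among them Cd79a, Cd3e and Lck, none of which is a member. Its values in the XX E arrays, in the same order, were 5.68, 9.06, 10.27, 5.36 and 5.51, and in the XX T arrays 10.41, 5.45, 5.70 and 5.86. The arrays with a lymphoid score above 9 were those with the highest cell cycle levels in both groups. Over all fat arrays the score ran from 5.05 to 10.51 with a gap between 6.99 and 7.76, which left 28 arrays below and 27 above. All lymphoid markers had lower detection in liver, where Ms4a1, Cr2 and Ccr7 were detected on 0 of 60 arrays.

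Because the arrays fall on both sides of that gap, correlations are given for each side as descriptions. Among the 27 arrays above the gap, the mean of the members had a Pearson r of 0.82 (Spearman 0.78) with the lymphoid score. Among the 28 below it r was 0.21 (Spearman 0.15). With the epithelial score, the mean of 14 keratin, claudin and other epithelial genes, r was 0.15 above the gap and 0.09 below it. Each array gives both values, so they share a library and its normalisation.

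**Figure D1:**
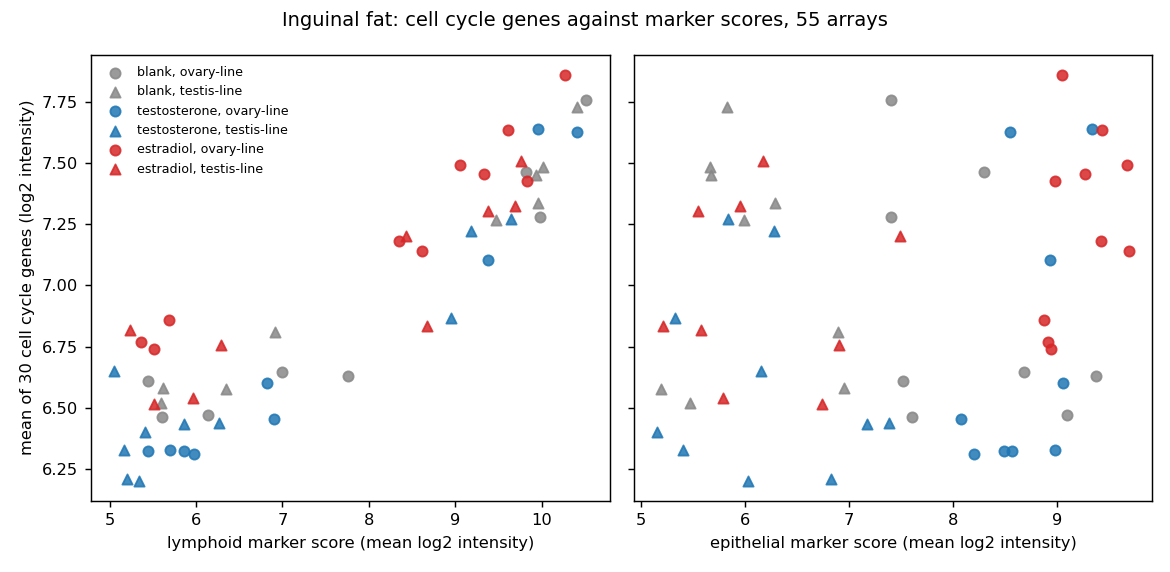
Mean log2 intensity of the 30 tested cell cycle genes (vertical) against the lymphoid score (left) and the epithelial score (right) in each of the 55 fat arrays, with colour for treatment and shape for gonad line. Arrays with a lymphoid score above 7.76 lie higher than those below 6.99 apart from some overlap between 6.63 and 6.86, while the epithelial score splits the arrays by gonad line with no matching step in the cell cycle genes.

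To ask whether cell cycle levels followed lymphoid or epithelial content within groups, each probe was fitted by limma with a mean for each group and slopes on both scores at once. On the lymphoid score, 25 of the 30 members had a slope with a limma adjusted p under 0.05 (Benjamini-Hochberg, 14636 probes), and all 25 were positive. Of all tested probes, 50.5% were called in either direction and 23.8% with a positive slope. The median slope of the 30 members was 0.25 log2 units per unit of score, against -0.01 over all tested probes. On the epithelial score 0 of 30 members were called by limma, 1 at an unadjusted p under 0.05, against 3.42% of all probes called. The median epithelial slope of the members was 0.03 (range -0.15 to 0.22), against 0.02 for all probes.

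Within groups the epithelial score varied less than the lymphoid score, with an SD of 0.58 against 1.95, so an epithelial slope is known less well. Its standard error was 0.15 for Top2a, against 0.04 for the lymphoid slope of the same gene. Under median centring in place of quantile normalisation 6 members had a called positive epithelial slope (Mcm6, Prc1, Mad2l1, Cdca3, Cdc20 and Ccne1), while 40.8% of all probes were called and the median of all probes moved to 0.18. The cause of that shift was not tested.

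Replication genes carried some of the steepest lymphoid slopes. Mcm5 rose by 0.43 ± 0.03 (SE) per unit of score with an adjusted p (limma) of 1.32e-19, and its values ran from 7.03 to 10.19. Mcm2 and Mcm3, other subunits of the helicase ring, had slopes of 0.32 ± 0.03 and 0.31 ± 0.03. Mcm4 had a slope of 0.21 ± 0.02 and Mcm7 0.14 ± 0.04. Pcna, the sliding clamp, had a slope of 0.08 ± 0.05 that was not called, and Cdc6, which loads the helicase, had -0.06 ± 0.03, also not called. Pcna values differed by slide, from 5.33 to 6.38 on slides 6 to 8 and from 6.16 to 7.57 on slides 1 to 5. This fit had no slide term.

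Genes of G2 and mitosis included the steepest slope. Top2a had a slope of 0.48 ± 0.04 (adjusted p 8.95e-13 by limma), Cdc20, the activator of the anaphase-promoting complex, 0.38 ± 0.03, Cenpa 0.37 ± 0.02 and Birc5, the survivin subunit of the chromosomal passenger complex, 0.34 ± 0.03. Prc1, Bub1b, a checkpoint kinase, Plk1, a mitotic kinase, and Mad2l1, a checkpoint protein, lay between 0.24 and 0.30. Kif11 had 0.16 ± 0.02. Foxm1, the transcription factor of the G2 and M genes, had a smaller slope of 0.10 ± 0.03 (adjusted p 0.00465 by limma).

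The G1 and S cyclins Ccne1 and Ccne2 did not follow the lymphoid score, with slopes of 0.07 ± 0.04 and -0.05 ± 0.03, and neither did Stmn1, a tubulin-binding protein, with 0.06 ± 0.03. These probes were dim, being detected on 17, 9 and 5 of 55 arrays. Ccnb1, the mitotic cyclin, was as rarely detected, on 13 arrays, and had a called slope of 0.25 ± 0.02. Tyms and Rrm1, detected on every fat array, had called slopes of 0.09 ± 0.02 and 0.10 ± 0.02, below the members' median.

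**Figure D2:**
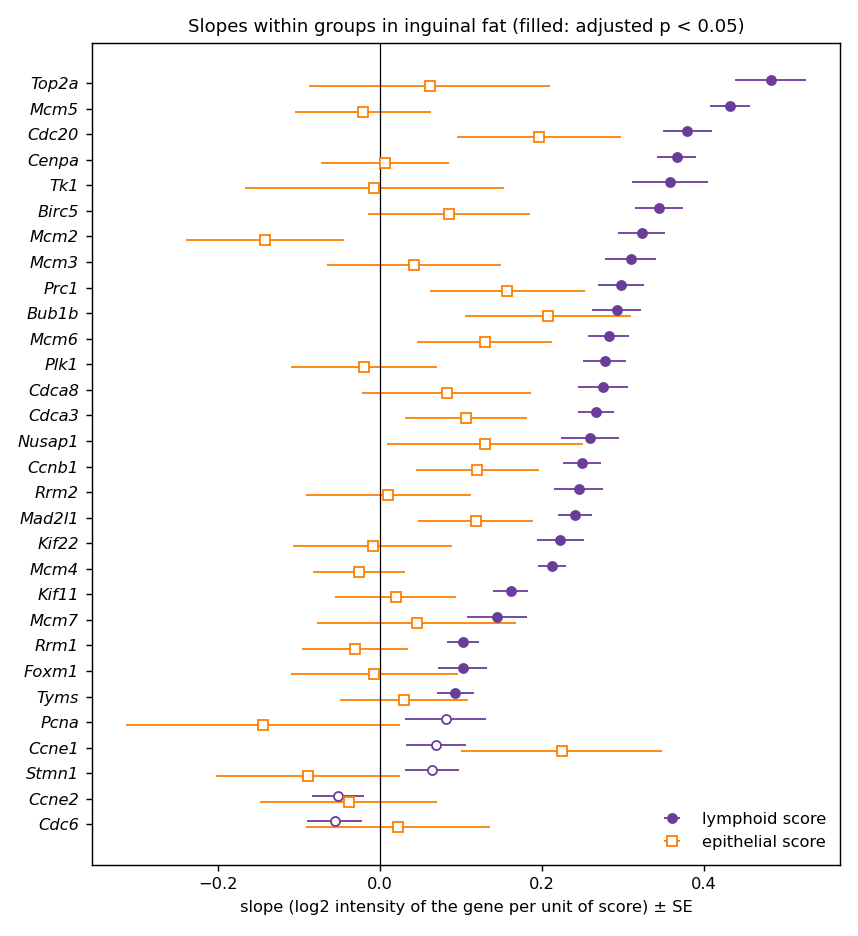
Slopes of the 30 tested cell cycle genes on the lymphoid score (circles) and the epithelial score (squares) from 1 limma fit with group means, in log2 intensity per unit of score with standard errors; filled symbols have an adjusted p under 0.05. The 25 filled lymphoid slopes lie between 0.09 for Tyms and 0.48 for Top2a, and no epithelial slope is filled.

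The lymphoid slopes were also fitted within each gonad line and on each side of the gap. Fitted in ovary-line arrays alone 26 of 30 members were called (38.4% of all probes), and in testis-line arrays alone 22 (28.3%). Among the 27 arrays above the gap 19 were called (11.6%) with a median slope of 0.47. Among the 28 arrays below it 0 were called by limma, where 0.171% of all probes were called, and the median slope was 0.11. Below the gap the slope of Top2a was -0.40 (adjusted p 0.866 by limma) and that of Mcm5 0.77 (adjusted p 0.267). The epithelial slopes gave 0 of 30 called in each of these 4 subsets.

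Genes outside the set were fitted in the same way. Of 31 other tested S, G2 and M genes, 27 had a called positive lymphoid slope (23.8% of all probes) and 0 a called epithelial slope (3.42% of all probes). Of 27 tested G1 regulators 10 had a called positive and 4 a called negative lymphoid slope. That is 51.9% called in either direction, close to the 50.5% of all probes. By the Pearson correlation over group-centred fat arrays, the gene outside the set most like the members' mean was Fen1, the flap endonuclease of lagging-strand synthesis (0.96 over 55 arrays), followed by Klhl6, 1810031K02Rik, Csk and Dgka. Those values pool arrays from both sides of the gap and are descriptions.

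Other tissue scores moved as well. All 12 skeletal muscle markers had called negative lymphoid slopes, and so did 5 of 8 adipocyte markers, against 3905 of all 14636 tested probes. In a bulk sample, fewer cells of a type and less RNA per cell cannot be told apart.

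The gonad line had a large effect on the epithelial score in fat and none was called on the cell cycle genes. The epithelial score was 8.73 ± 0.67 (SD, n = 27) in ovary-line arrays and 6.10 ± 0.69 (SD, n = 28) in testis-line arrays, and only 1 testis-line array reached the lowest ovary-line value of 7.40. The mean of the members was 6.99 ± 0.52 in the ovary line and 6.88 ± 0.45 in the testis line. For testis-line minus ovary-line, 0 of 30 members were called by limma (1 at an unadjusted p under 0.05), against 7.34% of all probes, with a median difference of -0.09 against 0.03 over all probes (0.01 for the members with array weights). The lymphoid score overlapped between the lines, at 7.79 ± 1.93 (SD, n = 27) in the ovary line and 7.47 (range 5.05 to 10.41, n = 28) in the testis line. For XX minus XY, 0 of 30 members were called by limma (1 at an unadjusted p under 0.05) against 0.137% of all probes.

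For testosterone minus blank in fat 1 of 30 members passed the test. Prc1 fell and the other 29 members were not called, a share close to the 4.75% of all probes called. Of the 30, 11 had an unadjusted p under 0.05. The sign was negative for 27 of 30, and for 27 or 28 under each scaling tried, with a median of -0.31 log2 units against -0.02 over all probes. Many members rose and fell together over the same arrays, so these signs are not separate results. The correlation with the mean of the other members was 0.96 for Cenpa and 0.94 for Birc5, though -0.25 for Cdc6. Prc1 ran from 6.43 to 9.01 (median 7.34) in the 19 T arrays and from 7.60 to 9.33 (median 8.42) in the 17 B arrays. The ranges overlapped, and the T mean was below the B mean in all 4 genotypes. The difference was -0.95 ± 0.22 (SE) log2 units, which is 1.93-fold lower with T (adjusted p 0.00676 by limma). Leaving out each array in turn gave 1 to 4 called members, the most without XX T replicate 1.

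No lymphoid marker passed the test for T minus B or T minus E: 0 of 16 were called by limma in each, and 0 had an unadjusted p under 0.05, while all 16 differences were negative in both. The lymphoid score was 6.97 ± 1.91 (SD, n = 19) in T, 8.03 ± 2.02 (SD, n = 17) in B and 7.92 ± 1.86 (SD, n = 19) in E, and 13 of 19 T arrays lay below the gap against 8 of 17 B and 7 of 19 E arrays. With both scores as covariates the Prc1 difference was -0.66 ± 0.13 (adjusted p 0.00045 by limma). With slide as a block it was -0.97 with an adjusted p of 0.0631. Within the 2 slides that held both T and B arrays it was negative in each, between -1.53 and -0.33, while the median of the 30 members was -0.71 in 1 and 0.04 in the other. The part of lymphoid content in the testosterone difference was not tested beyond these fits.

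Estradiol minus blank in fat called 0 of 30 members by limma (2 at an unadjusted p under 0.05), although 20.5% of all probes were called. Differences ran from -0.13 for Foxm1 to 0.40 for Mcm7, with a median of 0.08. That median pools 2 gonad lines with unlike signs. The difference was positive for 26 of 30 members in the ovary line (median 0.32, against -0.01 over all probes). It was negative for 25 of 30 in the testis line (median -0.13, against -0.02). The macrophage score was higher with E, at 10.04 ± 0.36 (SD, n = 19) against 9.02 ± 0.38 (SD, n = 17) in B. With the epithelial and lymphoid scores as covariates, Kif11, Mcm6 and Tyms were called higher, against 22.9% of all probes. Within ovary-line groups Mcm7, a helicase subunit, was called higher with E, with a fitted difference of 0.95 ± 0.26 (adjusted p 0.00971 by limma), against 10.2% of all probes called in that contrast. Its values ran from 5.28 to 7.07 in the 10 E arrays, detected on 6 of them, and from 4.55 to 6.31 in the 8 B arrays, detected on 1. It was detected on 0 of the 3 XX B arrays, so the size of the difference rests in part on levels at background. In the same contrast 6 of 14 epithelial markers and 7 of 8 macrophage markers were called higher, and the epithelial score was 8.17 ± 0.80 (SD, n = 8) in B and 9.22 ± 0.31 (SD, n = 10) in E. Their part in the Mcm7 difference was not tested. Leaving out each array in turn gave 1 to 3 called members in this contrast. In the testis line the Mcm7 difference was -0.15 ± 0.25, and the difference between the lines had an adjusted p of 0.217 by limma. Over all members the interactions of gonad line with T and with E called 0 of 30, with 1 and 2 at an unadjusted p under 0.05, against 0.0137% and 0.813% of all probes. Within the testis line Prc1 was lower with T (difference -1.198 ± 0.304, adjusted p 0.0167 by limma), where 3.55% of all probes were called. Those arrays are also part of the contrast over all genotypes, so this is not a separate result. The testis-line contrast gave 2 called members without XY-Sry T replicate 5 and 3 without XXSry T replicate 2. Within the ovary line T minus B called 0 of 30 members, against 0.417% of all probes.

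Set directly against estradiol, testosterone went with lower levels of 10 of the 30 members and higher levels of none. Of all probes 17.3% were called in this contrast and 9.57% were lower. The contrast was added after the results were seen, and it shares its T arrays with T minus B. The 10 genes were the S phase genes Mcm3 and Tyms, the mitotic cyclin Ccnb1, Top2a, the kinase and checkpoint genes Plk1, Bub1b and Mad2l1, and the spindle genes Kif11, Nusap1 and Prc1. Their differences lay between -0.38 for Kif11 and -1.07 for Top2a, and the median over the 30 members was -0.42 against -0.01 over all probes. Kif11 and Ccnb1 were detected on few T arrays, so the sizes of their differences rest in part on levels at background.

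Top2a ran from 4.86 to 8.43 (median 6.20) in the 19 T arrays, detected on 11, and from 5.35 to 8.70 (median 7.50) in the 19 E arrays, detected on 18. The difference was -1.07 ± 0.35 (SE), which is 2.10-fold lower with T (adjusted p 0.025 by limma), and the ranges overlapped widely. Tyms ran from 7.09 to 8.26 (median 7.73) in T and from 7.69 to 8.90 (median 8.22) in E, with a difference of -0.53 ± 0.11 (adjusted p 0.000477 by limma). Its T mean was below its E mean in all 4 genotypes. The other tested Tyms probes were detected on 4 arrays each and were not called. Second, dimmer probes of Birc5 (-0.83) and Mcm6 (-0.54) were called lower where the brighter ones were not. Mad2l1 differed by -0.73 ± 0.17 (adjusted p 0.00149 by limma).

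Markers of other cell types differed in the same contrast: 6 of 8 macrophage markers were called lower with T (median -0.73), 4 of 8 adipocyte markers were called higher (median 0.40), and 0 of 12 skeletal muscle markers were called by limma (5 at an unadjusted p under 0.05, median 1.26). The macrophage score was 9.42 ± 0.42 (SD, n = 19) in T and 10.04 ± 0.36 (SD, n = 19) in E, and the muscle score ran from 7.66 to 13.61 in T and from 6.06 to 13.52 in E. With the muscle, lymphoid and hepatocyte scores as covariates 6 members were called. With the epithelial and lymphoid scores as covariates 7 members were called (Ccnb1, Mad2l1, Mcm5, Plk1, Prc1, Top2a and Tyms), against 15% of all probes, and the Top2a difference was -0.63 ± 0.19 (adjusted p 0.0206 by limma). With the macrophage score added 2 were called and the Top2a difference was -0.37 (adjusted p 0.383). On the low side of the lymphoid gap the mean of the members ran from 6.20 to 6.65 in 13 T arrays and from 6.52 to 6.86 in 7 E arrays, and on the high side from 6.87 to 7.64 in 6 T arrays and from 6.84 to 7.86 in 12 E arrays. With slide as a block 3 of the 10 were called (Prc1, Tyms and Mad2l1) and Top2a was not (-0.997, adjusted p 0.104 by limma). For the fits with the muscle or macrophage scores and with slide as a block, no share of all probes is given. A fall in their counts is therefore not shown to be particular to the members. Changing the arrays moved the count: leaving out XX T replicate 1 gave 18 called members, XX T replicate 2 gave 6, and the 3 arrays with a high hepatocyte score gave 5. No share of all probes is given for these fits either, so these moves are not shown to be particular to the members.

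**Figure D3:**
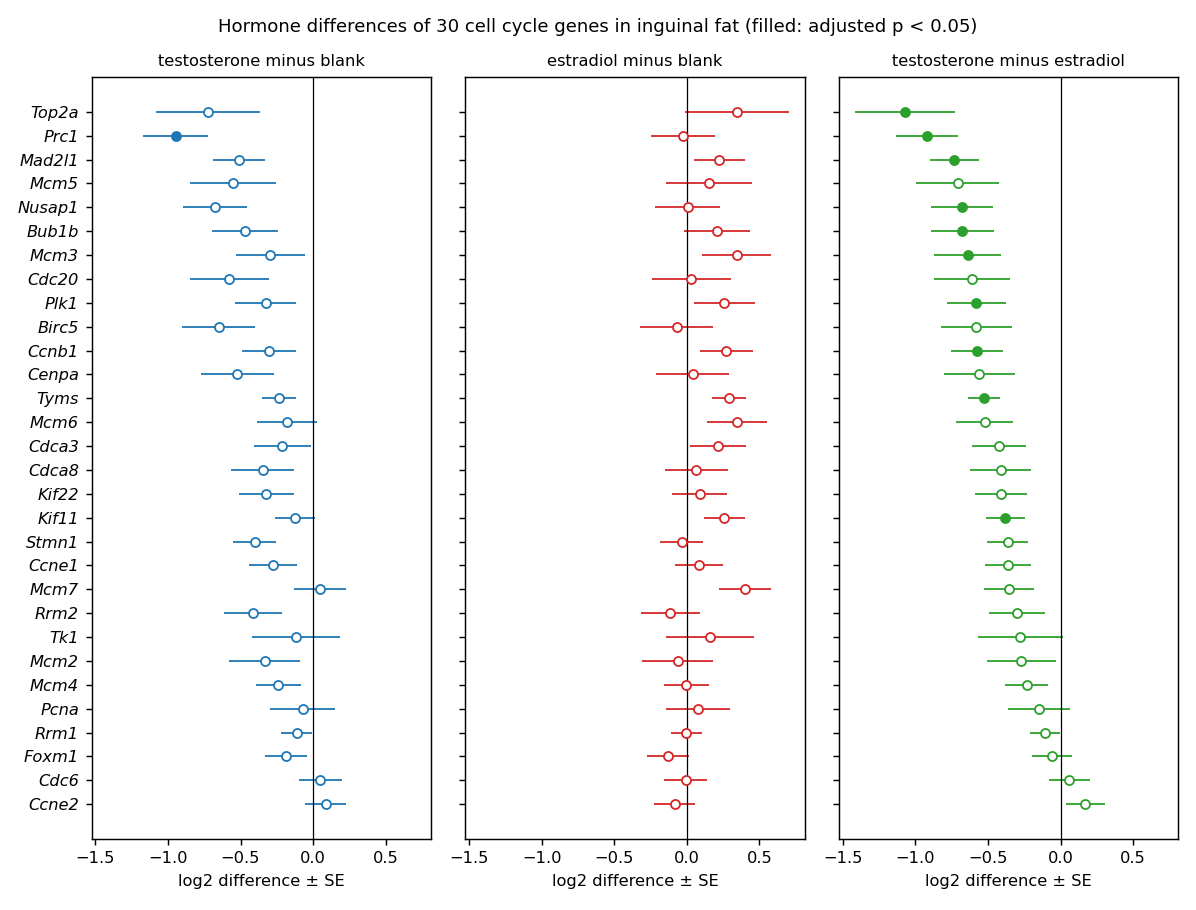
Log2 differences with standard errors of the 30 tested cell cycle genes in fat for testosterone minus blank, estradiol minus blank and testosterone minus estradiol; filled circles have an adjusted p under 0.05. Prc1 is filled in the left panel, none in the middle panel and 10 in the right panel, where Top2a has the largest difference at -1.07.

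**Figure D4:**
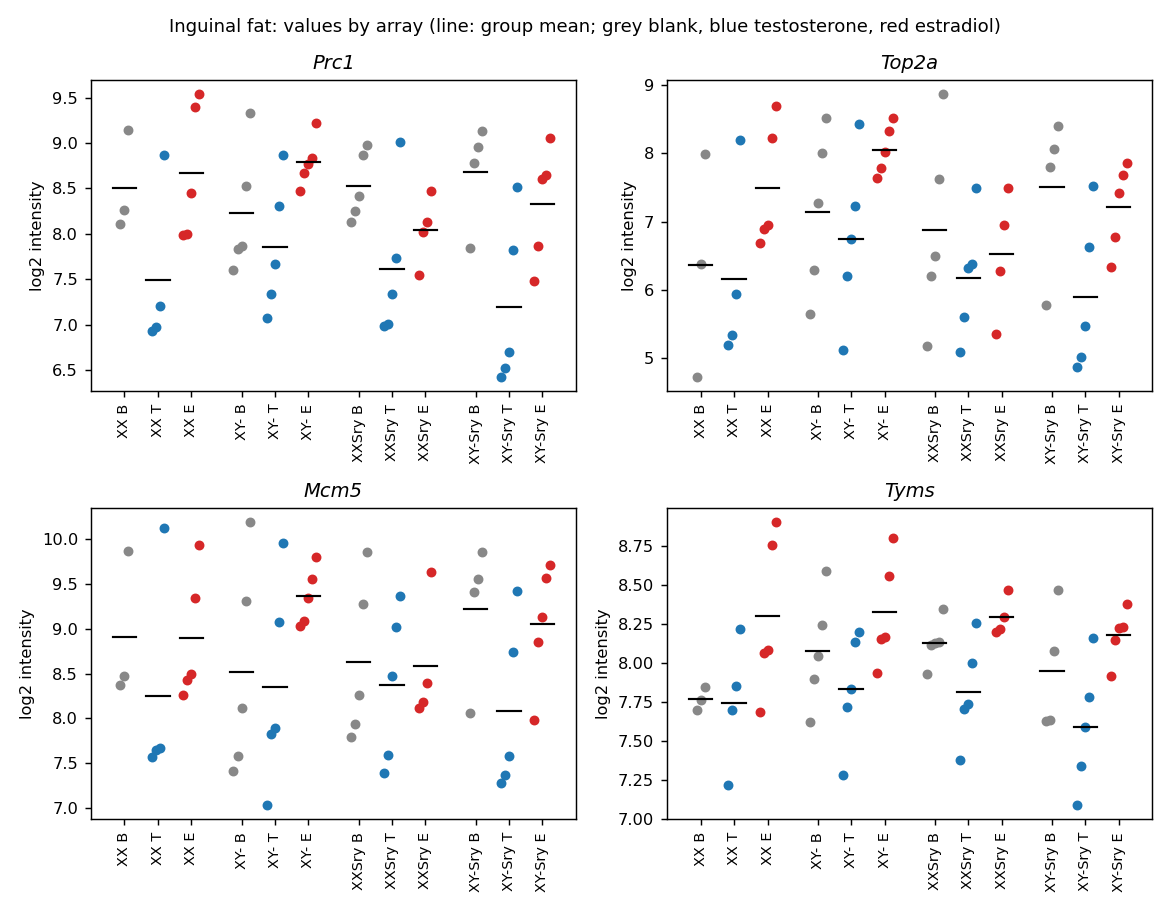
Log2 intensity of Prc1, Top2a, Mcm5 and Tyms in each fat array by genotype and treatment, with lines at the group means. Groups spread widely: in XX T, Prc1 stands at 8.87 on replicate 1 and between 6.94 and 7.21 on the other 3 arrays.

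Genes of the same phases outside the set were tested in the same contrasts in fat, where 4.75% (T minus B), 20.5% (E minus B), 7.34% (gonad line) and 17.3% (T minus E) of all probes were called. For T minus B, Pbk, a mitotic kinase (-0.71 ± 0.21), and Spc25, a kinetochore subunit, were called lower among 31 tested S, G2 and M genes and none was called higher. Spc25 was detected on 3 of 55 arrays, so most of its values lay at background and no size is given. For T minus E, 6 fell and 1 rose, the largest fall being in Cdk1, the mitotic kinase partner of the cyclins (-0.93 ± 0.24), and the rise in Cdc45, a helicase cofactor (0.40 ± 0.10). Among 27 G1 regulators, estradiol raised Cdkn1a, the p21 inhibitor, by 1.06 ± 0.19 over blank and 3 were lower, Cdk2, Mdm2 and Cdc25a. Testosterone minus blank raised Cdkn2b, the p15 inhibitor (0.43 ± 0.10), and lowered Cdk2, E2f1, Rbl1 and Ccnd3. Between gonad lines, Ccnd2 was higher (0.48 ± 0.10) and Ccnd1 lower (-0.43 ± 0.13) in the testis line, and Mxd4 was higher (0.65 ± 0.12).

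In liver few members responded, and most values were close to the detection limit. For T minus B, Tk1 fell and the other 18 of 19 tested members were not called, against 19.1% of all probes called. Tk1 ran from 7.55 to 9.72 (median 9.29) in the 20 T arrays and from 9.13 to 10.35 (median 9.69) in the 20 B arrays. The ranges overlapped, the T mean was lower in all 4 genotypes, and the difference was -0.49 ± 0.18 (SE; adjusted p 0.0418 by limma). A second, dimmer Tk1 probe was lower by 0.65 log2 units (difference -0.65 ± 0.16, adjusted p 0.00183), detected on 3 of 20 T arrays and 13 of 20 B arrays. The third probe differed by -0.29 ± 0.14 and was not called. The call on the brighter probe was lost in 20 of the 60 fits that each left out 1 array, in which the difference ran from -0.53 to -0.40.

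Estradiol minus blank in liver raised 2 helicase subunits, Mcm5 and Mcm6, with 6.82% of all probes called. Mcm6 ran from 5.51 to 6.69 (median 6.03) in the 20 E arrays and from 5.13 to 6.42 (median 5.71) in the 20 B arrays, a difference of 0.39 ± 0.11 (SE; adjusted p 0.0198 by limma). Mcm5 ran from 5.52 to 6.87 (median 6.05) in E and from 5.29 to 6.05 (median 5.69) in B, a difference of 0.41 ± 0.13 (adjusted p 0.044). Both were higher in E in all 4 genotypes, with overlapping ranges, and were detected on 18 of 20 E arrays against 14 (Mcm5) and 15 (Mcm6) of 20 B arrays. The other helicase subunits tested in liver were not called: Mcm2 differed by 0.10 ± 0.13 and Mcm4 by 0.02 ± 0.12, and Mcm7 was detected on 0 of 20 E arrays. In the same contrast 5 of 7 macrophage markers were called higher, and the macrophage score was 8.08 ± 0.63 (SD, n = 20) in E and 7.49 ± 0.47 (SD, n = 20) in B. Their part in the Mcm5 and Mcm6 differences was not tested. Under median centring the median of all probes moved to -0.18 for this contrast, Mcm5 and Mcm6 differed by 0.25 and 0.22 and were not called (adjusted p 0.257 and 0.268 by limma), and Tyms was called lower. With slide as a block Mcm5 differed by 0.39 (adjusted p 0.105) and Mcm6 by 0.44 (adjusted p 0.019 by limma). The Mcm5 call was also lost in 21 of the 60 fits that each left out 1 array.

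Testosterone minus estradiol in liver called 5 of 19 members, with 18.4% of all probes called and 10.6% lower. Mcm6 (-0.52 ± 0.11), Mcm5 (-0.53 ± 0.13), Prc1 (-0.39 ± 0.14) and Cenpa (-0.27 ± 0.08) were lower with T. Mcm7 was called higher with T (adjusted p 0.0168 by limma), and it was detected on 6 of 20 T arrays and 0 of 20 E arrays, so its level with E is a bound and no size is given. Outside T it was detected only on 1 XY- B and 2 XY-Sry B arrays, fewer than the 5 needed for testing. Mcm7 thus passed the filter only through the arrays where it was high, and its call is not separate from that filter. All 7 macrophage markers tested were called lower with T (median -0.94), and their score was 7.16 ± 0.34 (SD, n = 20) in T. Their part in these differences was not tested. Under median centring Mcm7 alone was called, while the median of all probes moved to 0.11. With slide as a block Mcm5 and Mcm6 were called among these 5 and Prc1 was not (-0.46, adjusted p 0.0623 by limma).

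The gonad line and the sex chromosomes gave no call on the members in liver. For testis-line minus ovary-line 0 of 19 members were called by limma (1 at an unadjusted p under 0.05), against 3.4% of all probes, and for XX minus XY 0 of 19 (1 at an unadjusted p under 0.05), against 0.186%. Within testis-line groups E raised Cenpa by 0.50 ± 0.11 (adjusted p 0.00347 by limma), and Cdc20 was called higher (adjusted p 0.0451 by limma), with 1.78% of all probes called. Cdc20 was detected on 4 of 10 E arrays and 0 of 10 B arrays there, so no size is given. Leaving out each array in turn gave 1 to 3 called members, with the count changed in 15 of 60 fits. In ovary-line groups the Cenpa difference was -0.10 ± 0.11, and the interactions of Cenpa and Cdc20 were not called (adjusted p 0.0943 and 0.201 by limma). Within ovary-line groups Prc1 was lower with T by 0.63 log2 units (difference -0.63 ± 0.19, adjusted p 0.0298 by limma), with 7.06% of all probes called. Prc1 was detected on 1 of 5 XX T and 3 of 5 XY- T arrays, against 4 of 5 XX B and 5 of 5 XY- B arrays. The size of its difference thus rests in part on levels at background. The count of called members fell to 0 in 7 of the 60 fits that each left out 1 array. In the same contrast 5 of 7 macrophage markers and 2 of 3 tested lymphoid markers were called lower. The interactions of gonad line with T and E called 0 of 19, with 2 and 3 at an unadjusted p under 0.05, against 0.124% and 0.0795% of all probes.

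**Figure D5:**
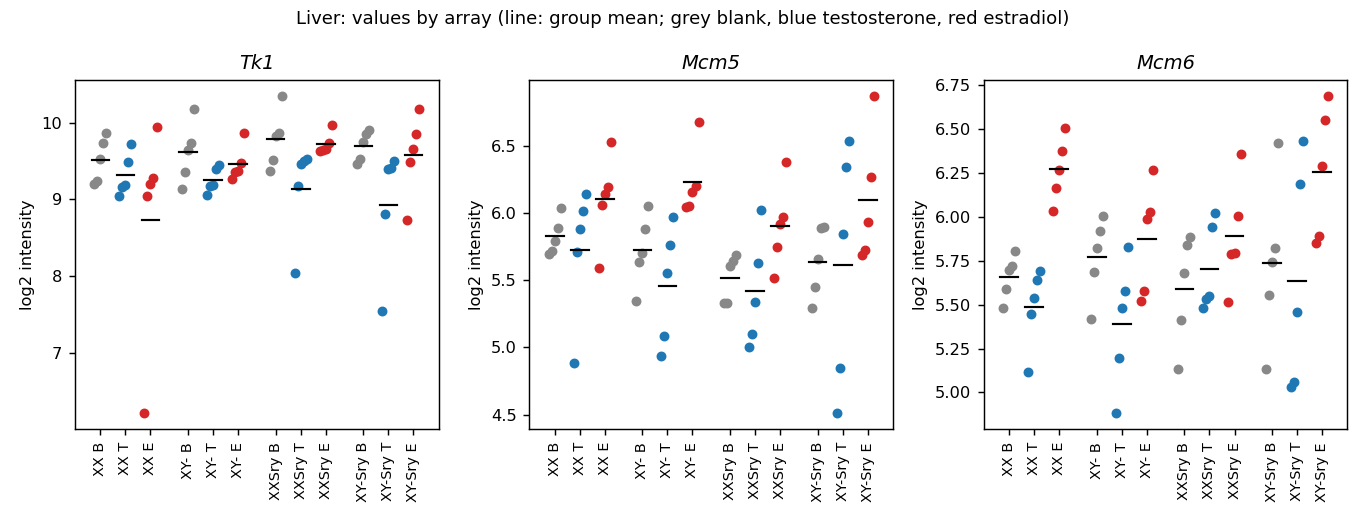
Log2 intensity of Tk1, Mcm5 and Mcm6 in each liver array by genotype and treatment, with lines at the group means. Mcm5 and Mcm6 have a higher mean with estradiol than with blank in each of the 4 genotypes, and Tk1 has single low arrays such as 6.21 in XX E.

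Regulators and phase genes outside the set were also tested in liver. Of 21 tested G1 regulators 7 fell and 0 rose with T over blank by limma (8 at an unadjusted p under 0.05 in either direction), against 19.1% of all probes. The largest falls were Cdkn1c, the p57 inhibitor (-1.20 ± 0.15), Gadd45a, a stress-induced growth arrest gene (-0.83 ± 0.18), Ccnd1, cyclin D1 (-0.73 ± 0.20), and Btg1, an antiproliferative gene (-0.71 ± 0.11). Of 17 other S, G2 and M genes, Anln, the anillin of the contractile ring (-0.59 ± 0.11), and Lig1, the replicative DNA ligase (-0.45 ± 0.13), fell with T. Anln was detected on 14 of 60 liver arrays and Lig1 on 17, so both sizes rest in part on levels at background. Mcm10, a replication initiation factor, rose with T by 0.88 ± 0.14, was lower with E by 0.51 log2 units (difference -0.51 ± 0.14) and was higher in the testis line by 0.63 ± 0.11. Its probe was detected on all 60 liver arrays, between 7.40 and 11.51, in a tissue where most members were not.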

How the data were processed

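Liver (60 arrays) and inguinal fat (55 arrays) were measured on 1-colour Illumina BeadChips. For each of 25697 probes the authors deposited a mean bead intensity and a detection p-value per array; the intensities were neither background-subtracted nor normalised between arrays, as read from their values. The submitters' processing notes name lumi, with no version. The 115 deposited columns of bead standard errors were not used.

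Each tissue was processed alone in limma 3.58.1 under R 4.3.3: normexp background correction with controls inferred from detection p-values, 16 added, quantile normalisation, log2. Adding 16 understates differences of dim probes. Probes with detection p under 0.01 on as many arrays as the smallest group were tested (14636 in fat, 11317 in liver). The model had 1 mean per group (lmFit, eBayes); contrasts weight groups equally, and differences are called at an adjusted p under 0.05 (Benjamini-Hochberg over the tested probes of a contrast). Arm means and ranges are over arrays. Replicate numbers only name arrays. Treatments lie unevenly over the 8 slides of each tissue. The number of arrays limits the precision. The fits were tested on simulated data.

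Members, lists, scores and the naming rule were chosen with earlier results of these data known. Under that rule every member may be named; values by array go to the brightest 2 members of each role and to the 4 called members of a contrast with the largest differences; other genes are up to 4 called ones per contrast from the S, G2 and M and G1 lists, marker lists and the genes most correlated with the members. Members and arrays given in full are a selection from these, made after their values were seen. Testosterone minus estradiol was added after the results were seen. Alternatives are given at the end.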

Additional observations from a re-analysis of the deposited data

Results flagged for a closer look

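In 91 sets of values, each of 1 gene or mean in 1 group of 4 or 5 arrays, 7 were flagged. A flagged set had an array whose gap to its nearest neighbour took up most of the set's range (Dixon's test). Chance alone gives about 1 in 20 for separate sets, but these sets share arrays and hold genes that move together. In fat, XX T replicate 1 was high for the mean of the members (7.62, the next array 6.33), for Mcm5 (10.12, next 7.66) and for Prc1 (8.87, next 7.21), and it had the highest lymphoid score of its group (10.41). The mean of the members was low on XY-Sry B replicate 2 (6.58, next 7.34). In liver, Tk1 was low on XX E replicate 1 (6.21, next 9.04) and on XXSry T replicate 4 (8.04, next 9.17), and Mcm5 was high on XY- E replicate 1 (6.68, next 6.20).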

How the results depend on the processing

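Counts of called members for the contrasts over all genotypes and for the slopes are given where they moved by over 1.5 times. In fat, T minus B called 1 member in the reported fit, 0 with slide as a block, 3 with array weights and 1 to 4 when each array was left out in turn (2 to 4 without XX T replicate 1, XXSry B replicate 1, XXSry T replicate 2, XY- T replicate 5, XY-Sry T replicate 2 or XY-Sry T replicate 5). E minus B called 0, and 3 with array weights, 3 with the epithelial and lymphoid scores as covariates, 5 with the skeletal muscle, lymphoid and hepatocyte scores, 1 with XX E replicate 1 taken as testosterone, and 0 to 1 leaving out each array. T minus E called 10, and 3 with slide as a block, 17 with array weights, 6 with the muscle, lymphoid and hepatocyte scores, 2 with the macrophage score added, 5 without the 3 arrays with a hepatocyte score above 10, and 6 to 18 leaving out each array. The lymphoid slope called 25 members, 25 to 26 leaving out each array, and 0 below the lymphoid gap, where the slope of Top2a reversed (-0.399, adjusted p 0.866 by limma). The epithelial slope called 0, and 6 under median centring. Gonad line called 0 in each setting. In liver, T minus B called 1, and 0 with no filter on dim probes, 2 with slide as a block, 2 with array weights and 0 to 2 leaving out each array. E minus B called 2, and 1 under median centring (another gene), 1 with no filter and 1 to 2 leaving out each array. T minus E called 5, and 1 under median centring. Within gonad lines, leaving out each array gave 1 to 3 called members for fat T minus B in the testis line, 1 to 3 for fat E minus B in the ovary line, 0 to 1 for liver T minus B in the ovary line and 1 to 3 for liver E minus B in the testis line. The cause of these moves was not tested, and no share of all probes stands beside these counts. Scores, hormones and slides are partly confounded, and in liver most members lay near the detection limit. Replicate numbers were given in accession order and pair no arrays. Arrays were matched by slide instead, as a block and within slides. The T minus E contrast, the macrophage covariate, the subsets of arrays and the hepatocyte exclusion were chosen after seeing the data.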
